A study of Mus musculus with 21 samples.

Results

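Primary hepatocytes of wild-type mice, liver cells taken into culture, were treated with Reference 4, an RNAi agent directed against Ttr, at 2 µM or at 0.2 µM, and RNA was taken on Day 1. The comparison of the 2 doses rests on 3 libraries each, chosen by the agent and dose in the sample titles, and so uses 6 of the 21 libraries of the study. The remaining libraries were 3 of PBS, which serve here as background, and 6 each of TTR-1236 and TTR-1186, the other agents against Ttr, at the same doses. The labels used here do not describe the chemistry of Reference 4 or the origin of the 3 libraries of a group, be it 3 mice or 3 wells, so the p-values reflect only how far these libraries scatter, which may be technical scatter. All groups share the genotype, the cell type and the day, and the sample titles name Reference 4 by its code name only.

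QuantSeq, a method that sequences the 3′ end of each polyadenylated transcript, gave values for 9657 genes. Levels are CPM, the reads of a gene per 1000000 reads of these genes in a library. Values of single libraries are given in the order of replicates 1, 2 and 3. A log2 difference is the mean at 2 µM less the mean at 0.2 µM on the scale of log2(CPM + 1), with its standard error from a limma fit to the 21 libraries. The words rose and fell are used for genes with a Benjamini-Hochberg adjusted p, taken over the 9657 genes, under 0.05. List members given by their log2 difference alone complete the account of a list's calls and were chosen after their values were seen. Reads cannot be assigned with certainty where measured genes overlap, since the strand setting of the counting is not stated. Among the genes named, Ago2, Alas2, Ccnd1, Eng, Fdps, Fh1, Srrm2, Tut7 and mt-Atp6 overlap another measured gene with at least 10% of their level.

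RNAi agents act through the cell's own small-RNA pathway: a guide strand is loaded into an Argonaute protein, pairs with its target mRNA and leads to its cleavage. Hepatocytes secrete most plasma proteins, among them albumin, clotting factors, lipoproteins and transthyretin, the product of Ttr. They also hold the main enzymes of drug oxidation, store metals, and alter their secretory output in the acute phase response to cytokines. In culture these cells gradually lose liver enzymes and gain cytoskeletal gene expression.

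Libraries of the lower dose were shallower. They held 14158740, 14971332 and 14825502 reads over the genes at 0.2 µM and 18802476, 32927430 and 29523758 at 2 µM, so that 1 read was worth between 0.0304 and 0.0706 CPM. Mitochondrial ribosomal RNA took 3.50%, 2.46% and 2.13% of CPM at 0.2 µM and 1.10%, 0.819% and 0.383% at 2 µM. Neither measure overlapped between the doses, and depth cannot be told apart from dose in these 6 libraries. In PBS the mitochondrial ribosomal RNA share was 3.26%, 2.70% and 0.797%.

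**Figure D1:**
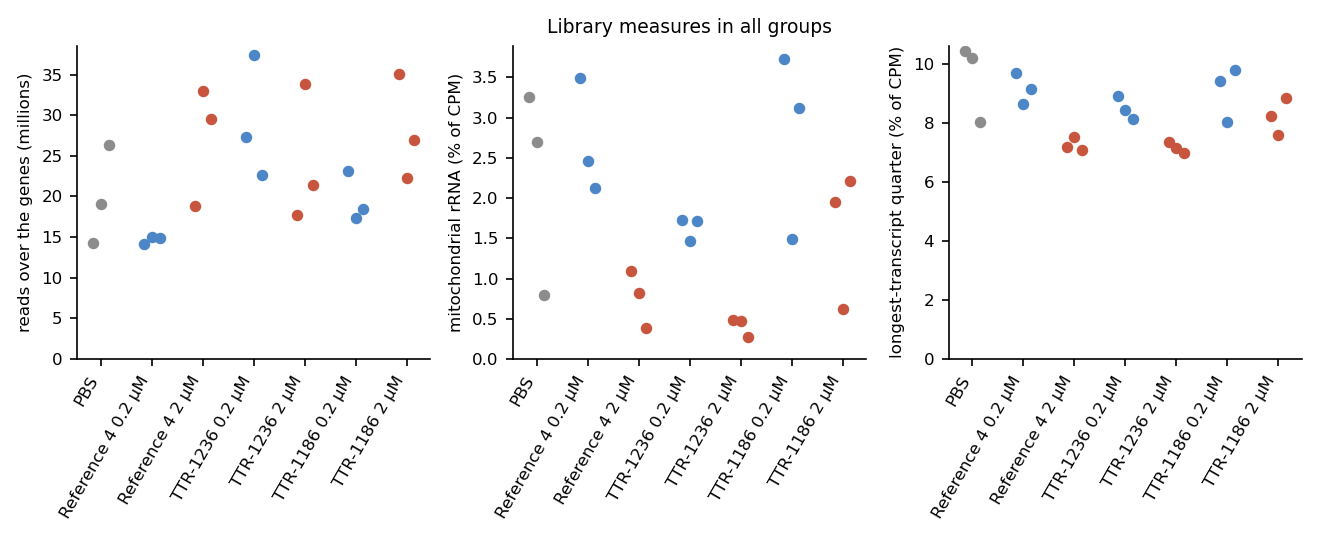
Reads per library on an axis scaled by 1000000, the share of mitochondrial ribosomal RNA in percent of CPM and the share of CPM in the 2146 protein-coding genes with the longest transcripts, for each of the 21 libraries in 7 groups (grey PBS, blue 0.2 µM, red 2 µM, 1 point a library). For Reference 4 the 3 points of 2 µM lie above those of 0.2 µM in reads and below them in both shares.

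Between the doses 655 genes rose and 584 fell, which are 6.78% and 6.05% of the genes tested and 12.8% together. At least a 2-fold change was seen in 305 of those that rose and in 388 of those that fell. Protein-coding genes made up 516 of the rises and 465 of the falls, and pseudogenes, whose reads can come from a near-identical parent gene, 116 and 99. The median log2 difference of all genes was 0.03. Of the 1239 changed genes, 1196 had no overlap between the libraries of the 2 doses. A lack of overlap given below for a changed gene therefore adds little to its call. Leaving out 2 µM replicate 3 reduced the count of changed genes from 1239 to 208. The count was 691, 549 and 975 without 0.2 µM replicates 1, 2 and 3, and 1148 and 631 without 2 µM replicates 1 and 2. In all 6 of these fits 110 rises and 75 falls passed. Each fit has fewer libraries and adjusts p over all genes, so a call can end while the log2 difference changes little. Over these fits the log2 difference of Eno1 ran from 0.65 to 0.77, while that of C8b ran from -1.41 to -0.76. A call that ended therefore does not by itself show that the difference was lost. With the mitochondrial ribosomal RNA share as a covariate, an alternative chosen after seeing the data, 187 genes rose and 72 fell. Below, the covariate means this alternative. The share did not overlap between the doses compared, so a fit with the covariate cannot fully separate the share from dose. Such a fit can take away part of a dose difference. Loss of a call with the covariate therefore does not by itself show that no dose difference was present. Whether the share itself depends on dose was not tested.

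Gene lists describing liver and cell functions were read against these shares. In the plot of lists, ordered by their median, metal handling, acute phase, respiratory chain, NF-kB, cytoskeleton and ribosomal protein lists held the larger shares of rises, and chromatin regulators and RNAi machinery the larger shares of falls. These are counts of single-gene calls, and no test was made of a list as a whole. The lists share members, so their counts are not separate results. Rises of Mt1, Mt2 and Hamp count in both the metal handling and the acute phase list. That of Lcn2 counts in both the acute phase and the NF-kB list. Every list count below is to be read beside the 6.78% that rose and the 6.05% that fell among all genes.

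**Figure D2:**
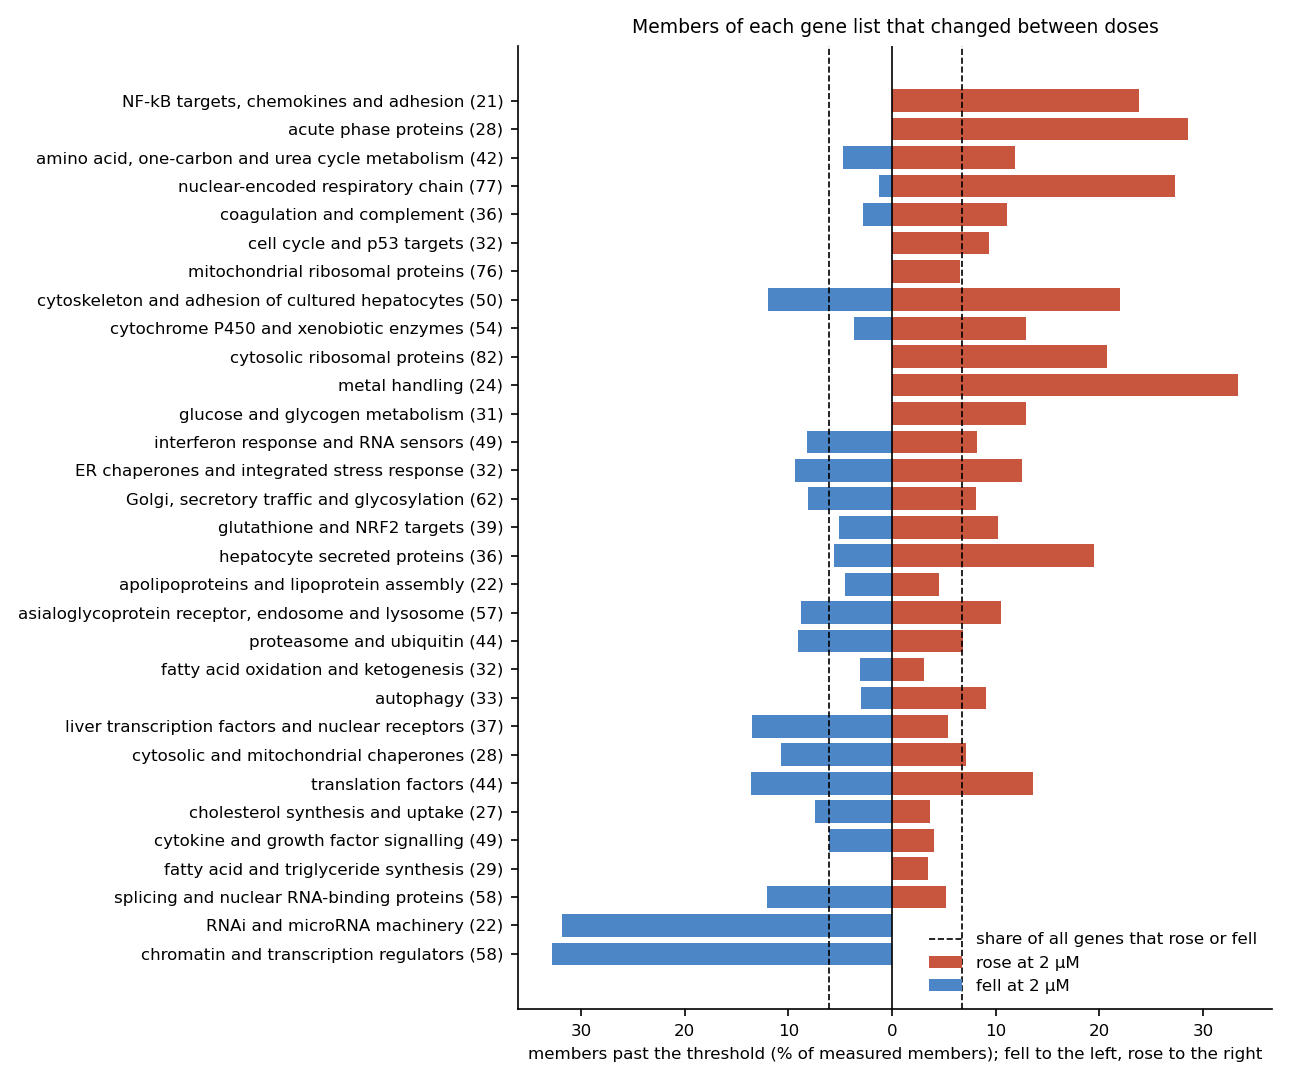
Share of measured members of each gene list that fell (left) or rose (right) at 2 µM against 0.2 µM of Reference 4, in percent, with the number of measured members in brackets and lists of at least 20 members ordered by their median log2 difference. Dashed lines mark the shares among all genes, 6.05% fallen and 6.78% risen; 19 of 58 chromatin and transcription regulators fell and 0 rose, and 8 of 24 metal handling genes rose and 0 fell.

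The targeted gene was low at both doses. Ttr was at 17.2, 17.6 and 4.99 CPM at 0.2 µM and at 27.1, 17.4 and 12.9 CPM at 2 µM, against 2272, 2168 and 2336 CPM in PBS. The doses overlapped, and the difference did not pass the threshold (log2 difference 0.61, 95% interval -0.26 to 1.48, adjusted p = 0.364).

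Secreted liver proteins held 7 rises and 2 falls among 36 measured members. Igfbp1, a liver protein that binds insulin-like growth factors (ENSMUSG00000020429, chromosome 11 from 7197782 to 7202546 on the plus strand in GRCm38), was at 133, 149 and 150.2 CPM at 0.2 µM and at 419, 352 and 336 CPM at 2 µM (log2 difference 1.35 ± 0.18, adjusted p = 2.54e-04). PBS stood at 386 ± 38.4 CPM (SD, n = 3), so every library of the lower dose lay below PBS, and the higher dose, at 336 to 419 CPM, overlapped the PBS range of 358 to 430.0 CPM. Alb, which encodes albumin, the main protein of blood plasma, was at 3616, 3559 and 3811 CPM at 0.2 µM and at 5894, 6358 and 6913 CPM at 2 µM (log2 difference 0.80 ± 0.14, adjusted p = 0.00224), with PBS at 5182 ± 728 CPM. Igf1, the growth factor that the liver releases under growth hormone, was at 140.3, 137 and 181 CPM at 0.2 µM and at 311, 257 and 274 CPM at 2 µM (log2 difference 0.88 ± 0.18, adjusted p = 0.00499). All 2 µM libraries lay above all 0.2 µM libraries for these 3 genes. Serpina1d, an alpha-1-antitrypsin gene of a family of near-identical copies (0.77), Itih2, an inter-alpha-trypsin inhibitor heavy chain (1.10), and Hrg, histidine-rich glycoprotein (0.95), also rose, and Fetub (-0.88) and Inhba, an activin subunit (-1.17), fell. Among 5 measured carriers of thyroid hormone and retinol, Alb alone passed; Rbp4, the partner of transthyretin in plasma, was at 890.4, 1058 and 932 CPM and 1179, 1246 and 1154 CPM (adjusted p = 0.0679). Igfbp1, Alb and Igf1 passed whichever library was left out. The calls of Serpina1d and Itih2 ended when any one of 0.2 µM replicate 2 and 2 µM replicate 3 was left out (adjusted p up to 0.0545 and 0.1004). The call of Hrg ended when any one of 0.2 µM replicate 3 and 2 µM replicates 2 and 3 was left out (adjusted p up to 0.0794). The call of Fetub ended when any one of 0.2 µM replicates 1 and 2 and 2 µM replicates 2 and 3 was left out (adjusted p up to 0.101). The call of Inhba ended in every fit except that without 2 µM replicate 1 (adjusted p up to 0.184). With the covariate Igfbp1, Alb and Igf1 passed, and Serpina1d, Itih2, Hrg, Fetub and Inhba did not. The list held 8, 5 and 6 rises and 0, 0 and 1 falls without 0.2 µM replicates 1, 2 and 3, 6, 6 and 4 rises and 2, 0 and 0 falls without 2 µM replicates 1, 2 and 3, and 3 rises and 0 falls with the covariate.

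**Figure D3:**
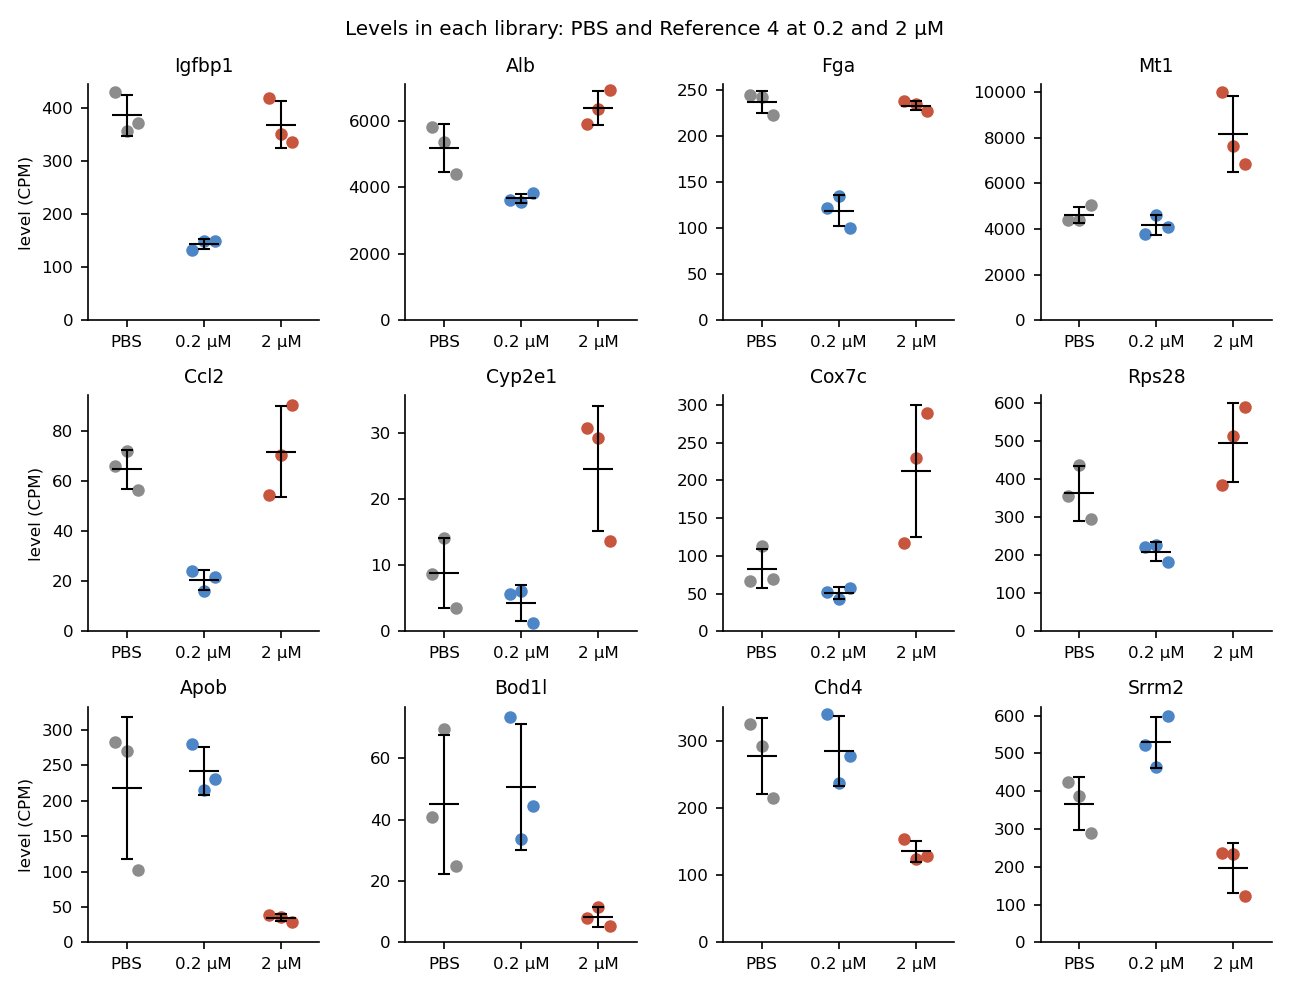
Level in CPM of 12 genes in each library of PBS (grey), Reference 4 at 0.2 µM (blue) and at 2 µM (red), 3 points a group, with the mean (wide mark) and SD (bar) and axes that start at 0. The 2 µM points lie above the 0.2 µM points for Igfbp1, Alb, Fga, Mt1, Ccl2, Cyp2e1, Cox7c and Rps28 and below them for Apob, Bod1l, Chd4 and Srrm2.

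Acute phase proteins, which hepatocytes make under inflammatory cytokines, held 8 rises and 0 falls among 28 members (1 fall with TMM factors, DESeq2 size factors or edgeR), with a median of 0.38. Fga, the alpha chain of fibrinogen, was at 122, 135 and 101 CPM at 0.2 µM and at 238, 235 and 228 CPM at 2 µM (log2 difference 0.97 ± 0.16, adjusted p = 0.00210). PBS, at 237 ± 11.7 CPM, was close to the higher dose. Its partner chains Fgb (adjusted p = 0.0532) and Fgg (0.131) differed by 0.54 and 0.36 without passing. Serpina3n, a serine protease inhibitor, was at 194, 254 and 173 CPM at 0.2 µM and at 503, 422 and 347 CPM at 2 µM (log2 difference 1.03 ± 0.23, adjusted p = 0.00760). Lcn2, the iron-siderophore binder lipocalin 2, was at 3155, 2817 and 4080.2 CPM at 0.2 µM and at 5925, 4775 and 5534 CPM at 2 µM (log2 difference 0.70 ± 0.16, adjusted p = 0.00778). Here PBS, at 3367 ± 302 CPM, was close to the lower dose. Saa3, a serum amyloid A, (0.77) and Apcs, serum amyloid P (0.70), rose, while haptoglobin, Hp, stood at 3104, 3783 and 3874 CPM and 3174, 2870.5 and 2819.9 CPM (adjusted p = 0.239). Fga and Serpina3n passed whichever library was left out. The call of Lcn2 ended when any one of 0.2 µM replicate 2 and 2 µM replicate 3 was left out (adjusted p up to 0.0510). The call of Saa3 ended when any one of 0.2 µM replicate 3 and 2 µM replicates 1 and 3 was left out (adjusted p up to 0.0746). The call of Apcs ended when any one of 0.2 µM replicates 1 and 2 and 2 µM replicates 2 and 3 was left out (adjusted p up to 0.124). With the covariate Fga and Serpina3n passed, and Lcn2, Saa3 and Apcs did not. Without 0.2 µM replicates 1, 2 and 3 in turn there were 7, 6 and 6 rises, as against 6, 8 and 5 rises without 2 µM replicates 1, 2 and 3 and 3 rises and 0 falls with the covariate.

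Chemokines and other targets of NF-kB, a transcription factor of inflammation, held 5 rises and 0 falls among 21 members, with a median of 0.45. Ccl2, a chemokine that draws monocytes, was at 24.0, 16.2 and 21.6 CPM at 0.2 µM and at 54.3, 70.2 and 90.3 CPM at 2 µM (log2 difference 1.74 ± 0.30, adjusted p = 0.00224), with PBS at 64.6 ± 7.79 CPM. Sod2, the manganese superoxide dismutase of mitochondria, was at 43.8, 36.0 and 29.6 CPM at 0.2 µM and at 68.4, 90.0 and 97.9 CPM at 2 µM (log2 difference 1.21 ± 0.28, adjusted p = 0.00879), with PBS at 78.1 ± 7.31 CPM. For both genes the lower dose lay below every PBS library and the doses did not overlap. Cxcl1, which draws neutrophils (1.81), and Vcam1, an adhesion molecule (1.27), rose from low levels. Ccl2 passed whichever library was left out. The call of Sod2 ended without 2 µM replicate 3 (adjusted p = 0.0659). The call of Cxcl1 ended when any one of 0.2 µM replicate 2 and 2 µM replicates 2 and 3 was left out (adjusted p up to 0.104). The call of Vcam1 ended in every fit except that without 2 µM replicate 2 (adjusted p up to 0.217). With the covariate Ccl2 and Sod2 passed, and Cxcl1 and Vcam1 did not. There were 5, 2 and 4 rises in the list without 0.2 µM replicates 1, 2 and 3, 5, 4 and 1 rises without 2 µM replicates 1, 2 and 3, and 2 rises and 0 falls with the covariate.

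Coagulation and complement genes held 4 rises and 1 fall among 36 members, beside 6.78% and 6.05% of all genes. Serpinc1, which encodes antithrombin, was at 115, 104 and 124 CPM at 0.2 µM and at 179.8, 186 and 174 CPM at 2 µM (log2 difference 0.65 ± 0.15, adjusted p = 0.00878). C8b, a subunit of the membrane attack complex, was at 90.3, 112 and 83.0 CPM at 0.2 µM and at 54.5, 55.7 and 22.1 CPM at 2 µM (log2 difference -1.19 ± 0.31, adjusted p = 0.0177). The doses did not overlap in either gene, with PBS means of 139 and 72.6 CPM. Serpinc1 passed whichever library was left out. The call of C8b ended when any one of 0.2 µM replicate 2 and 2 µM replicate 3 was left out (adjusted p up to 0.140). With the covariate Serpinc1 and C8b did not pass. When 0.2 µM replicates 1, 2 and 3 were left out in turn the list held 3, 3 and 2 rises and 1, 0 and 1 falls, as against 3, 2 and 2 rises and 1, 1 and 0 falls for 2 µM replicates 1, 2 and 3 and 1 rise and 0 falls with the covariate. Without 2 µM replicate 3 the log2 difference of C8b was -0.76.

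Metal handling genes held 8 rises and 0 falls among 24 members, and 6 rises and 1 fall with TMM factors, DESeq2 size factors or edgeR. Metallothioneins bind zinc and copper, and their genes are switched on by the zinc-sensing factor MTF-1. Mt1 was at 3769, 4641 and 4091 CPM at 0.2 µM and at 10023, 7625 and 6837 CPM at 2 µM (log2 difference 0.96 ± 0.15, adjusted p = 0.00157), and Mt2 was at 2124, 2361 and 2053 CPM at 0.2 µM and at 3568, 3308 and 2999 CPM at 2 µM (log2 difference 0.59 ± 0.14, adjusted p = 0.00792). PBS was at 4615 ± 367 CPM for Mt1, near the lower dose, and at 2856 ± 90.9 CPM for Mt2, between the doses. Slc30a1, a zinc exporter and another known MTF-1 target, was at 8.55, 13.2 and 10.7 CPM at 0.2 µM and at 18.7, 20.7 and 27.6 CPM at 2 µM (log2 difference 0.99 ± 0.28, adjusted p = 0.0229). No library of the lower dose reached the higher dose for these 3 genes. Hamp, which encodes the iron hormone hepcidin, was at 10.1, 17.1 and 6.81 CPM at 0.2 µM and at 45.2, 33.6 and 24.6 CPM at 2 µM (log2 difference 1.57 ± 0.41, adjusted p = 0.0159), with PBS at 11.5 ± 6.40 CPM. Among genes of iron storage and uptake Aco1, a cytosolic aconitase that also regulates iron mRNAs, (1.05), the ferritin chains Fth1 (0.45) and Ftl1 (0.37) and the transporter Slc39a14 (0.86) rose. Ferritin genes have many processed copies in the genome, so their reads are uncertain. Mt1 and Mt2 passed whichever library was left out. The call of Slc30a1 ended when any one of 0.2 µM replicate 1 and 2 µM replicates 2 and 3 was left out (adjusted p up to 0.136). The call of Hamp ended when any one of 0.2 µM replicate 3 and 2 µM replicate 1 was left out (adjusted p up to 0.0657). The call of Aco1 ended when any one of 0.2 µM replicates 2 and 3 and 2 µM replicates 2 and 3 was left out (adjusted p up to 0.133). The call of Fth1 ended in every fit except that without 2 µM replicate 1 (adjusted p up to 0.167). The call of Ftl1 ended whichever library was left out (adjusted p up to 0.203). The call of Slc39a14 ended in every fit except that without 0.2 µM replicate 1 (adjusted p up to 0.189). With the covariate Mt1 and Slc39a14 passed, and Mt2, Slc30a1, Hamp, Aco1, Fth1 and Ftl1 did not. List counts were 5, 4 and 3 rises without 0.2 µM replicates 1, 2 and 3, 5, 3 and 3 rises without 2 µM replicates 1, 2 and 3, and 2 rises and 0 falls with the covariate.

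The 250 bases before the start of Mt1, Mt2 and Slc30a1 are shown because these genes rose together and are known targets of a factor that binds metal response elements. They are RefSeq sequences of GRCm38.p6, 5′ to 3′, at chr8:94178839-94179088, chr8:94172368-94172617 and chr1:191906531-191906780, each on the plus strand. Capitals mark the core letters of that element, TGCACNC or TGCGCNC, on either strand.
Mt1: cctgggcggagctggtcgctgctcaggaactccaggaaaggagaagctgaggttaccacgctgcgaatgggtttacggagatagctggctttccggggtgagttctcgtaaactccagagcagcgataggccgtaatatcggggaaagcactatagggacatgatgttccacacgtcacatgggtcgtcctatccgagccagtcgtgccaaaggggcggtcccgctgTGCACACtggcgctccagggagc
Mt2: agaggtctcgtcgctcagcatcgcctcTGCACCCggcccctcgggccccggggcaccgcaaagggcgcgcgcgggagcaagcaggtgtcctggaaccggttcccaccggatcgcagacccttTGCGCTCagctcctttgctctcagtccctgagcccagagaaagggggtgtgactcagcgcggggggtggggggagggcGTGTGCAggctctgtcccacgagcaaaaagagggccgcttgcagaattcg
Slc30a1: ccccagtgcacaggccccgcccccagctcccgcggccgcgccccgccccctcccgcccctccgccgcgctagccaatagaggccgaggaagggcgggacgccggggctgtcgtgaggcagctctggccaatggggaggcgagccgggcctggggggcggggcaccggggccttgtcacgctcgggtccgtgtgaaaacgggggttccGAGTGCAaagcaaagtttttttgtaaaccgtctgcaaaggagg
Mt1 and Slc30a1 held 1 match each and Mt2 held 3. Of the 32851 windows of this length before RefSeq gene starts, 21.4% held at least 1 match and 1.26% at least 3. A match describes the letters and is not a measured binding site.

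Enzymes of drug metabolism held 7 rises and 2 falls among 54 members. Cyp2e1, the cytochrome P450 that oxidises ethanol, was at 5.65, 6.08 and 1.21 CPM at 0.2 µM and at 30.8, 29.3 and 13.8 CPM at 2 µM (log2 difference 2.36 ± 0.55, adjusted p = 0.00869), with PBS at 8.82 ± 5.26 CPM. Cyp2f2, which oxidises naphthalene, was at 42.6, 47.9 and 62.9 CPM at 0.2 µM and at 104, 101 and 82.5 CPM at 2 µM (log2 difference 0.90 ± 0.18, adjusted p = 0.00415), and Cyp3a11, a main drug-oxidising enzyme, was at 165, 183 and 171 CPM at 0.2 µM and at 237, 271 and 313 CPM at 2 µM (log2 difference 0.65 ± 0.18, adjusted p = 0.0232). The doses did not overlap for any of the 3. The Ugt1a genes share their last exons, which 3′ reads cover, so the rises of Ugt1a1 (0.74), Ugt1a6a (0.80) and Ugt1a9 (0.80) may be a single reading. Adh1, alcohol dehydrogenase (-0.65), and Nr1i2, the pregnane X receptor that senses drugs (-0.81), fell. Cyp2e1 and Cyp2f2 passed whichever library was left out. The calls of Cyp3a11, Ugt1a1, Ugt1a6a and Ugt1a9 ended in every fit except that without 2 µM replicate 1 (adjusted p up to 0.136, 0.176, 0.135 and 0.136). The call of Adh1 ended in every fit except that without 0.2 µM replicate 3 (adjusted p up to 0.116). The call of Nr1i2 ended when any one of 0.2 µM replicates 1 and 2 and 2 µM replicates 2 and 3 was left out (adjusted p up to 0.122). With the covariate Cyp2e1, Cyp2f2 and Adh1 passed, and Cyp3a11, Ugt1a1, Ugt1a6a, Ugt1a9 and Nr1i2 did not. Leaving out 0.2 µM replicates 1, 2 and 3 in turn left the list 3, 2 and 4 rises and 0, 0 and 2 falls, leaving out 2 µM replicates 1, 2 and 3 left 8, 2 and 2 rises and 1, 0 and 0 falls, and the covariate left 4 rises and 1 fall.

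Bile acid genes were few, with 10 measured. Cyp27a1, the mitochondrial sterol 27-hydroxylase of bile acid synthesis, was at 21.5, 19.5 and 13.2 CPM at 0.2 µM and at 43.6, 54.1 and 70.1 CPM at 2 µM (log2 difference 1.58 ± 0.30, adjusted p = 0.00305). Abcc2, the pump that moves conjugates into bile, was at 175, 107 and 142 CPM at 0.2 µM and at 67.2, 65.1 and 52.7 CPM at 2 µM (log2 difference -1.16 ± 0.26, adjusted p = 0.00725). These were the only members that passed, in opposite directions, with PBS means of 30.5 and 114 CPM. Cyp27a1 passed whichever library was left out. The call of Abcc2 ended without 2 µM replicate 3 (adjusted p = 0.0589). With the covariate Cyp27a1 passed, and Abcc2 did not. The list held 1, 1 and 1 rises and 1, 1 and 1 falls without 0.2 µM replicates 1, 2 and 3, 1, 1 and 1 rises and 1, 1 and 0 falls without 2 µM replicates 1, 2 and 3, and 1 rise and 0 falls with the covariate.

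Amino acid and one-carbon enzymes held 5 rises and 2 falls among 42 members, with a median of 0.34. Ftcd, which links histidine breakdown to folate, was at 516, 611 and 448 CPM at 0.2 µM and at 273, 290.3 and 211 CPM at 2 µM (log2 difference -1.02 ± 0.24, adjusted p = 0.0108). Got2, the mitochondrial aspartate aminotransferase, was at 407, 449 and 471 CPM at 0.2 µM and at 608, 571 and 635 CPM at 2 µM (log2 difference 0.45 ± 0.12, adjusted p = 0.0177). Both genes separated the doses, Ftcd downward and Got2 upward. The call of Ftcd ended when any one of 0.2 µM replicate 2 and 2 µM replicate 3 was left out (adjusted p up to 0.0777). The call of Got2 ended when any one of 0.2 µM replicate 1 and 2 µM replicate 3 was left out (adjusted p up to 0.0959). With the covariate Ftcd and Got2 did not pass. Without 0.2 µM replicates 1, 2 and 3 in turn there were 0, 2 and 3 rises and 1, 0 and 1 falls, as against 3, 2 and 0 rises and 2, 1 and 0 falls without 2 µM replicates 1, 2 and 3 and 2 rises and 0 falls with the covariate.

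Glucose metabolism held 4 rises and 0 falls among 31 members. Slc2a1, the glucose transporter GLUT1, was at 36.4, 38.5 and 40.4 CPM at 0.2 µM and at 81.6, 72.5 and 58.2 CPM at 2 µM (log2 difference 0.85 ± 0.19, adjusted p = 0.00744). H6pd, a dehydrogenase of the endoplasmic reticulum, was at 50.3, 49.4 and 60.2 CPM at 0.2 µM and at 86.2, 105 and 116 CPM at 2 µM (log2 difference 0.92 ± 0.22, adjusted p = 0.0110), and Eno1, enolase, was at 502, 461 and 499 CPM at 0.2 µM and at 704, 829.9 and 837 CPM at 2 µM (log2 difference 0.69 ± 0.17, adjusted p = 0.0114). In all 3 the 2 µM libraries were the higher, with PBS means of 50.7, 115 and 509.8 CPM. Eno1 read within 25% of its copy Eno1b in every library, so the assignment of its reads is uncertain. Slc2a1 passed whichever library was left out. The calls of H6pd and Eno1 ended without 2 µM replicate 3 (adjusted p = 0.0763 and 0.0694). With the covariate Slc2a1 passed, and H6pd and Eno1 did not. There were 3, 4 and 4 rises and 0, 0 and 1 falls in the list without 0.2 µM replicates 1, 2 and 3, 3, 3 and 1 rises and 0, 0 and 0 falls without 2 µM replicates 1, 2 and 3, and 1 rise and 0 falls with the covariate.

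Apob, which encodes the backbone protein of the lipoproteins that the liver exports (ENSMUSG00000020609, chromosome 12 from 7977648 to 8016835 on the plus strand), was at 281, 215 and 231 CPM at 0.2 µM and at 38.8, 36.4 and 29.5 CPM at 2 µM (log2 difference -2.76 ± 0.44, adjusted p = 0.00224), the largest fall among the genes eligible for naming. PBS libraries held 283, 269.9 and 102 CPM, and the library with 102 CPM was the PBS library with 0.797% mitochondrial ribosomal RNA. With that share as the covariate the log2 difference of Apob was -1.34 (adjusted p = 0.00982). Apoc2, the activator of lipoprotein lipase, was at 125, 117 and 183 CPM at 0.2 µM and at 292, 223 and 264 CPM at 2 µM (log2 difference 0.89 ± 0.19, adjusted p = 0.00590), and shares its values with the predicted gene Gm44805, which lies over it. Of 22 apolipoprotein and assembly genes these were the only members past the threshold. Fabp1, the fatty acid carrier of the liver cytosol, was at 15.6, 15.1 and 7.28 CPM at 0.2 µM and at 54.0, 48.7 and 27.1 CPM at 2 µM (log2 difference 1.71 ± 0.40, adjusted p = 0.00878), as the only call among 29 genes of fatty acid and triglyceride synthesis. The doses were apart for all 3 genes. Apob, Apoc2 and Fabp1 passed whichever library was left out. With the covariate Apob and Fabp1 passed, and Apoc2 did not.

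Cholesterol genes held 2 falls and 1 rise among 27 members, beside 6.05% fallen and 6.78% risen of all genes. Mvd, mevalonate diphosphate decarboxylase, was at 79.2, 93.6 and 77.8 CPM at 0.2 µM and at 37.4, 39.5 and 48.0 CPM at 2 µM (log2 difference -0.99 ± 0.24, adjusted p = 0.0110). Fdps, farnesyl diphosphate synthase, was at 285, 279.9 and 290.0 CPM at 0.2 µM and at 218, 196 and 212 CPM at 2 µM (log2 difference -0.45 ± 0.13, adjusted p = 0.0253). Scap, the escort protein of the sterol regulators, was at 27.3, 27.1 and 28.3 CPM at 0.2 µM and at 42.1, 54.5 and 58.4 CPM at 2 µM (log2 difference 0.87 ± 0.26, adjusted p = 0.0282). In the list of fatty acid oxidation and ketogenesis, with 32 measured members, Acads, a short-chain acyl-CoA dehydrogenase, fell (log2 difference -0.66 ± 0.17, adjusted p = 0.0171). The doses did not overlap in any of these 4 genes. The call of Mvd ended without 0.2 µM replicate 2 (adjusted p = 0.0510). The calls of Fdps and Scap ended in every fit except that without 2 µM replicate 1 (adjusted p up to 0.0931 and 0.138). The call of Acads ended when any one of 0.2 µM replicate 2 and 2 µM replicate 3 was left out (adjusted p up to 0.108). With the covariate Mvd and Acads passed, and Fdps and Scap did not. When 0.2 µM replicates 1, 2 and 3 were left out in turn the cholesterol list held 0, 0 and 0 rises and 1, 0 and 1 falls, as against 1, 0 and 0 rises and 2, 1 and 1 falls for 2 µM replicates 1, 2 and 3 and 0 rises and 2 falls with the covariate.

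Nuclear genes of the respiratory chain held 21 rises and 1 fall among 77 members, with a median of 0.27. Their median longest transcript is 1129 bases. The 2146 protein-coding genes with the shortest transcripts had a median of 0.17, and 230 of them rose. Atp5g2, a subunit of the ring of ATP synthase, was at 92.3, 112 and 98.4 CPM at 0.2 µM and at 229, 218 and 277 CPM at 2 µM (log2 difference 1.25 ± 0.17, adjusted p = 2.54e-04), with PBS at 141 ± 3.73 CPM. Its values lay within 25% of those of Gm10175 in every library, so its reads are uncertain. Ndufa8, a complex I subunit, was at 33.1, 24.2 and 34.3 CPM at 0.2 µM and at 58.6, 65.9 and 70.5 CPM at 2 µM (log2 difference 1.08 ± 0.20, adjusted p = 0.00270). Cox7c, a subunit of cytochrome c oxidase, was at 52.6, 42.4 and 58.0 CPM at 0.2 µM and at 117, 230.2 and 289 CPM at 2 µM (log2 difference 1.95 ± 0.40, adjusted p = 0.00567). Ndufa1, another complex I subunit, was at 9.18, 6.48 and 4.25 CPM at 0.2 µM and at 15.4, 39.9 and 46.2 CPM at 2 µM (log2 difference 2.10 ± 0.46, adjusted p = 0.00655). Within the higher dose, replicate 1 was the lowest for Ndufa8, Cox7c and Ndufa1, and still above every library of the lower dose. The other rises lay between 0.44 (Cox8a) and 1.54 (Ndufb3), and the fall was Uqcrh, a complex III subunit (-0.40). Atp5g2, Ndufa8, Cox7c and Ndufb3 passed whichever library was left out. The call of Ndufa1 ended without 2 µM replicate 3 (adjusted p = 0.0589). The call of Cox8a ended when any one of 0.2 µM replicates 1 and 2 and 2 µM replicate 3 was left out (adjusted p up to 0.150). The call of Uqcrh ended in every fit except that without 2 µM replicate 1 (adjusted p up to 0.155). With the covariate Atp5g2, Ndufa1 and Ndufb3 passed, and Ndufa8, Cox7c, Cox8a and Uqcrh did not. List counts were 14, 9 and 14 rises and 0, 0 and 0 falls without 0.2 µM replicates 1, 2 and 3, 19, 8 and 4 rises and 1, 0 and 0 falls without 2 µM replicates 1, 2 and 3, and 3 rises and 0 falls with the covariate. Uqcrh did not pass with TMM factors, DESeq2 size factors or edgeR, which counted 0 falls in this list.

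Mitochondrial DNA encodes both mRNAs and ribosomal RNAs. Of its 13 mRNAs 3 rose and 1 fell, and both ribosomal RNAs fell. mt-Atp6, a subunit of ATP synthase, was at 1852, 1958 and 2258 CPM at 0.2 µM and at 3569, 3509 and 3346 CPM at 2 µM (log2 difference 0.78 ± 0.14, adjusted p = 0.00255). mt-Cytb, cytochrome b, was at 602, 531 and 599 CPM at 0.2 µM and at 975, 1055 and 901 CPM at 2 µM (log2 difference 0.76 ± 0.20, adjusted p = 0.0160), and mt-Nd3, a complex I subunit, was at 157, 163 and 251 CPM at 0.2 µM and at 296, 313 and 316 CPM at 2 µM (log2 difference 0.73 ± 0.17, adjusted p = 0.00848). mt-Nd5 fell (-0.96). The 2 ribosomal RNAs fell, mt-Rnr2 from 27482, 19118 and 17016 CPM to 8957, 6609 and 2983 CPM (log2 difference -1.89 ± 0.57, adjusted p = 0.0433) and mt-Rnr1 from 7503, 5529 and 4298 CPM to 2026, 1584 and 843 CPM (log2 difference -2.01 ± 0.62, adjusted p = 0.0471). Nuclear copies of mitochondrial DNA share reads with these genes: mt-Atp6 lay within 25% of Gm10925, and mt-Nd3 of Gm28438, in every library. mt-Atp6 passed whichever library was left out. The call of mt-Cytb ended when any one of 0.2 µM replicate 2 and 2 µM replicates 2 and 3 was left out (adjusted p up to 0.0633). The call of mt-Nd3 ended without 2 µM replicate 3 (adjusted p = 0.0545). The call of mt-Nd5 ended when any one of 0.2 µM replicates 1 and 3 and 2 µM replicates 2 and 3 was left out (adjusted p up to 0.169). The calls of mt-Rnr2 and mt-Rnr1 ended in every fit except that without 2 µM replicate 1 (adjusted p up to 0.198 and 0.193). With the covariate mt-Atp6 and mt-Cytb passed, and mt-Nd3, mt-Nd5, mt-Rnr2 and mt-Rnr1 did not. The covariate is built from mt-Rnr2 and mt-Rnr1, so for these genes that outcome was fixed in advance. Leaving out 0.2 µM replicates 1, 2 and 3 in turn left the list 3, 2 and 3 rises and 0, 1 and 0 falls, leaving out 2 µM replicates 1, 2 and 3 left 3, 2 and 1 rises and 1, 0 and 0 falls, and the covariate left 3 rises and 0 falls.

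Ribosomal proteins of the cytosol held 17 rises and 0 falls among 82 members, with a median of 0.16. Their median longest transcript is 1076.5 bases. The 2146 protein-coding genes with the shortest transcripts had a median of 0.17, and 230 of them rose. Rps28, a small subunit protein, was at 221, 226 and 183 CPM at 0.2 µM and at 386, 514 and 589 CPM at 2 µM (log2 difference 1.22 ± 0.22, adjusted p = 0.00253), with PBS at 363 ± 71.5 CPM. Rps3 was at 498, 472 and 448 CPM at 0.2 µM and at 651, 742 and 900.4 CPM at 2 µM (log2 difference 0.68 ± 0.13, adjusted p = 0.00255), and Rpl39, a large subunit protein, was at 252, 201 and 250.04 CPM at 0.2 µM and at 372, 573 and 663 CPM at 2 µM (log2 difference 1.16 ± 0.23, adjusted p = 0.00485). The doses were apart in these 3, although ribosomal protein genes have many processed copies and single genes are uncertain. Rps28, Rps3 and Rpl39 passed whichever library was left out. With the covariate Rps28 passed, and Rps3 and Rpl39 did not. The list held 13, 10 and 13 rises without 0.2 µM replicates 1, 2 and 3, 20, 11 and 4 rises without 2 µM replicates 1, 2 and 3, and 3 rises and 0 falls with the covariate. Mitochondrial ribosomal proteins held 5 rises among 76 members, a share close to that of all genes, and included Mrpl3 (log2 difference 1.13 ± 0.26, adjusted p = 0.00760), Mrpl53 (log2 difference 1.11 ± 0.27, adjusted p = 0.0107) and Mrpl33 (log2 difference 0.82 ± 0.20, adjusted p = 0.0113). The calls of Mrpl3 and Mrpl33 ended without 2 µM replicate 3 (adjusted p = 0.0678 and 0.0864). The call of Mrpl53 ended when any one of 0.2 µM replicate 2 and 2 µM replicate 3 was left out (adjusted p up to 0.0848). Mrpl3, Mrpl53 and Mrpl33 did not pass with the covariate. Without 0.2 µM replicates 1, 2 and 3 in turn there were 4, 4 and 5 rises, as against 7, 4 and 0 rises without 2 µM replicates 1, 2 and 3 and 1 rise and 0 falls with the covariate. Mrpl53 read within 25% of Gm42688 throughout.

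Translation factors held 6 rises and 6 falls among 44 members. Eif1, which helps to select the start codon, was at 915, 872 and 952 CPM at 0.2 µM and at 1343, 1503 and 1608 CPM at 2 µM (log2 difference 0.70 ± 0.12, adjusted p = 0.00224), and Eif3i, a subunit of the initiation factor eIF3, was at 65.0, 56.2 and 51.2 CPM at 0.2 µM and at 105, 107 and 118 CPM at 2 µM (log2 difference 0.93 ± 0.20, adjusted p = 0.00562). Eif4g1, the scaffold that joins the cap-binding complex to the ribosome, was at 672, 519.7 and 498 CPM at 0.2 µM and at 290.3, 295 and 243 CPM at 2 µM (log2 difference -1.02 ± 0.20, adjusted p = 0.00324). The doses did not overlap in the 3 genes. Eif3a, the largest eIF3 subunit (-1.40), and Pabpc1, the poly(A)-binding protein (-1.14), fell as well. Eif1, Eif3i and Eif4g1 passed whichever library was left out. The call of Eif3a ended without 2 µM replicate 3 (adjusted p = 0.0658). The call of Pabpc1 ended when any one of 0.2 µM replicates 1 and 2 and 2 µM replicate 3 was left out (adjusted p up to 0.108). With the covariate Eif3i passed, and Eif1, Eif4g1, Eif3a and Pabpc1 did not. There were 7, 3 and 5 rises and 2, 3 and 7 falls in the list without 0.2 µM replicates 1, 2 and 3, 7, 3 and 2 rises and 5, 5 and 1 falls without 2 µM replicates 1, 2 and 3, and 3 rises and 0 falls with the covariate.

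In the endoplasmic reticulum and stress response list 4 of 32 members rose and 3 fell. Xbp1, a transcription factor of the unfolded protein response, was at 23.7, 16.5 and 20.3 CPM at 0.2 µM and at 32.5, 59.9 and 54.9 CPM at 2 µM (log2 difference 1.21 ± 0.31, adjusted p = 0.0155), and Pdia6, a disulfide isomerase, was at 91.5, 43.3 and 60.8 CPM at 0.2 µM and at 111, 111 and 146 CPM at 2 µM (log2 difference 0.95 ± 0.27, adjusted p = 0.0235). Atf5, a factor of the stress response that is translated under amino acid shortage, was at 982, 969.7 and 967 CPM at 0.2 µM and at 688, 545 and 519 CPM at 2 µM (log2 difference -0.75 ± 0.21, adjusted p = 0.0226), and the chaperone Hspa5 changed by -0.61. The call of Xbp1 ended when any one of 0.2 µM replicate 2 and 2 µM replicates 2 and 3 was left out (adjusted p up to 0.0886). The call of Pdia6 ended when any one of 0.2 µM replicates 2 and 3 and 2 µM replicate 3 was left out (adjusted p up to 0.132). The call of Atf5 ended when any one of 0.2 µM replicates 1 and 2 and 2 µM replicates 2 and 3 was left out (adjusted p up to 0.117). The call of Hspa5 ended when any one of 0.2 µM replicates 1 and 2 and 2 µM replicate 3 was left out (adjusted p up to 0.188). Xbp1, Pdia6, Atf5 and Hspa5 did not pass with the covariate. When 0.2 µM replicates 1, 2 and 3 were left out in turn the list held 4, 0 and 2 rises and 0, 1 and 3 falls, as against 4, 1 and 0 rises and 2, 1 and 0 falls for 2 µM replicates 1, 2 and 3 and 0 rises and 0 falls with the covariate.

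Cytosolic and mitochondrial chaperones held 2 rises and 3 falls among 28 members, against 6.78% and 6.05% of all genes. Hspa8, the constitutive HSP70, was at 440.3, 430.4 and 476 CPM at 0.2 µM and at 616, 661 and 709 CPM at 2 µM (log2 difference 0.56 ± 0.14, adjusted p = 0.0117), and Cct4, a subunit of the tubulin- and actin-folding chaperonin, was at 88.4, 69.4 and 75.5 CPM at 0.2 µM and at 95.1, 144 and 150.4 CPM at 2 µM (log2 difference 0.71 ± 0.20, adjusted p = 0.0251). Dnajb6, an HSP40, was at 171, 162 and 122 CPM at 0.2 µM and at 92.3, 91.8 and 93.7 CPM at 2 µM (log2 difference -0.69 ± 0.17, adjusted p = 0.0142). The doses were apart for each. The call of Hspa8 ended without 2 µM replicate 3 (adjusted p = 0.0765). The call of Cct4 ended when any one of 0.2 µM replicates 2 and 3 and 2 µM replicates 2 and 3 was left out (adjusted p up to 0.142). The call of Dnajb6 ended when any one of 0.2 µM replicates 1 and 2 and 2 µM replicate 3 was left out (adjusted p up to 0.0643). With the covariate Hspa8 passed, and Cct4 and Dnajb6 did not. List counts were 2, 1 and 1 rises and 0, 0 and 4 falls without 0.2 µM replicates 1, 2 and 3, 2, 1 and 0 rises and 2, 1 and 0 falls without 2 µM replicates 1, 2 and 3, and 2 rises and 1 fall with the covariate.

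Proteasome and ubiquitin genes held 3 rises and 4 falls among 44 members, shares near the 6.78% and 6.05% of all genes. Ubb, a polyubiquitin gene, was at 315, 241 and 333 CPM at 0.2 µM and at 489.8, 531 and 622 CPM at 2 µM (log2 difference 0.89 ± 0.19, adjusted p = 0.00525), with PBS at 300.0 ± 31.7 CPM. Psmc1, an ATPase of the proteasome cap, was at 575, 725 and 493 CPM at 0.2 µM and at 355, 290.2 and 220.4 CPM at 2 µM (log2 difference -1.06 ± 0.19, adjusted p = 0.00253), and Psmd13, another cap subunit, was at 313, 338 and 223 CPM at 0.2 µM and at 189, 178 and 147 CPM at 2 µM (log2 difference -0.75 ± 0.18, adjusted p = 0.0116). Ubb was higher and both cap subunits lower in all 2 µM libraries. Ubb and Psmc1 passed whichever library was left out. The call of Psmd13 ended when any one of 0.2 µM replicate 2 and 2 µM replicate 3 was left out (adjusted p up to 0.0864). Ubb, Psmc1 and Psmd13 did not pass with the covariate. Leaving out 0.2 µM replicates 1, 2 and 3 in turn left the list 3, 1 and 1 rises and 2, 2 and 3 falls, leaving out 2 µM replicates 1, 2 and 3 left 5, 1 and 1 rises and 3, 3 and 1 falls, and the covariate left 1 rise and 1 fall.

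Genes of glutathione and of NRF2, the factor of the oxidant response, held 4 rises and 2 falls among 39 members. Among all genes 6.78% rose and 6.05% fell. Txn1, thioredoxin, was at 109, 77.5 and 127 CPM at 0.2 µM and at 197, 281 and 295 CPM at 2 µM (log2 difference 1.30 ± 0.24, adjusted p = 0.00270), and Gsto1, a glutathione transferase, was at 39.8, 33.9 and 54.6 CPM at 0.2 µM and at 79.1, 75.7 and 86.3 CPM at 2 µM (log2 difference 0.92 ± 0.22, adjusted p = 0.00879). Gclm (-0.73) and Txnrd1 (-0.98), of the same list, fell. Of the 39 members 23 were higher at 2 µM, beside 52.2% of all genes. Txn1 passed whichever library was left out. The call of Gsto1 ended when any one of 0.2 µM replicate 2 and 2 µM replicate 3 was left out (adjusted p up to 0.0616). The call of Gclm ended when any one of 0.2 µM replicates 1 and 2 and 2 µM replicate 3 was left out (adjusted p up to 0.107). The call of Txnrd1 ended in every fit except that without 0.2 µM replicate 3 (adjusted p up to 0.179). With the covariate Txn1 passed, and Gsto1, Gclm and Txnrd1 did not. The list held 4, 2 and 4 rises and 0, 0 and 2 falls without 0.2 µM replicates 1, 2 and 3, 5, 3 and 1 rises and 1, 1 and 0 falls without 2 µM replicates 1, 2 and 3, and 3 rises and 0 falls with the covariate.

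Chromatin and transcription regulators held 19 falls and 0 rises among 58 members, and 50 of the 58 were lower at 2 µM, with a median of -0.82. Between the same doses the list median was -0.61 with TTR-1236 and -0.39 with TTR-1186. Bod1l, which protects replication forks, was at 73.5, 33.7 and 44.5 CPM at 0.2 µM and at 7.82, 11.6 and 5.45 CPM at 2 µM (log2 difference -2.45 ± 0.40, adjusted p = 0.00206). PBS libraries held 40.8, 69.4 and 24.8 CPM. Chd4, the ATPase of the NuRD remodelling complex, was at 340.1, 237 and 277 CPM at 0.2 µM and at 153, 125 and 128 CPM at 2 µM (log2 difference -1.06 ± 0.19, adjusted p = 0.00229), with PBS at 278 ± 56.1 CPM. Baz2b, a bromodomain protein, was at 50.4, 26.7 and 35.3 CPM at 0.2 µM and at 7.34, 10.4 and 7.52 CPM at 2 µM (log2 difference -2.00 ± 0.38, adjusted p = 0.00314), and Nipbl, the cohesin loader, was at 95.5, 68.1 and 57.5 CPM at 0.2 µM and at 19.7, 22.6 and 17.7 CPM at 2 µM (log2 difference -1.80 ± 0.38, adjusted p = 0.00583). All libraries of the higher dose lay below all of the lower dose for these 4 genes. The rest of the falls ran from -0.67 (Smarca4, a SWI/SNF ATPase) to -2.22 (Resf1, which takes part in silencing of endogenous retroviruses). Bod1l, Chd4, Baz2b, Nipbl and Resf1 passed whichever library was left out. The call of Smarca4 ended in every fit except that without 0.2 µM replicate 2 (adjusted p up to 0.0784). With the covariate Bod1l passed, and Chd4, Baz2b, Nipbl, Smarca4 and Resf1 did not. Without 0.2 µM replicates 1, 2 and 3 in turn there were 7, 11 and 17 falls, as against 16, 11 and 7 falls without 2 µM replicates 1, 2 and 3 and 0 rises and 1 fall with the covariate. The members have a median longest transcript of 8631 bases, and longer transcripts were lower at the higher dose among protein-coding genes as a whole.

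Splicing and nuclear RNA-binding genes held 7 falls and 3 rises among 58 members. Srrm2, a large scaffold protein of nuclear speckles, was at 522, 465 and 600.0 CPM at 0.2 µM and at 236, 233 and 122 CPM at 2 µM (log2 difference -1.48 ± 0.23, adjusted p = 0.00172). Rbm28, which binds RNA in the nucleolus, was at 58.4, 67.7 and 41.4 CPM at 0.2 µM and at 10.2, 12.7 and 14.02 CPM at 2 µM (log2 difference -2.08 ± 0.32, adjusted p = 0.00132), and Prpf4b, a spliceosomal kinase, was at 91.8, 77.5 and 95.4 CPM at 0.2 µM and at 35.5, 44.3 and 34.0 CPM at 2 µM (log2 difference -1.20 ± 0.20, adjusted p = 0.00206). Each was lower in every 2 µM library. Srrm2, Rbm28 and Prpf4b passed whichever library was left out. With the covariate Srrm2 and Rbm28 passed, and Prpf4b did not. There were 4, 2 and 2 rises and 3, 4 and 7 falls in the list without 0.2 µM replicates 1, 2 and 3, 4, 1 and 1 rises and 7, 4 and 3 falls without 2 µM replicates 1, 2 and 3, and 1 rise and 2 falls with the covariate.

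Liver transcription factors and nuclear receptors held 2 rises and 5 falls among 37 members. Hnf4a, the nuclear receptor that sets hepatocyte identity, was at 27.7, 21.9 and 22.7 CPM at 0.2 µM and at 35.0, 59.7 and 46.1 CPM at 2 µM (log2 difference 0.91 ± 0.25, adjusted p = 0.0198), with PBS at 42.9 ± 11.4 CPM. Cebpd, a factor of the acute phase response, was at 4.59, 5.68 and 8.70 CPM at 0.2 µM and at 11.3, 13.5 and 17.3 CPM at 2 µM (log2 difference 1.06 ± 0.30, adjusted p = 0.0250). Rora, a receptor of the circadian clock, was at 119.9, 95.6 and 86.5 CPM at 0.2 µM and at 63.5, 46.7 and 39.3 CPM at 2 µM (log2 difference -1.02 ± 0.27, adjusted p = 0.0187), and Clock, a core gene of that clock, was at 19.9, 27.5 and 17.2 CPM at 0.2 µM and at 4.15, 5.22 and 5.18 CPM at 2 µM (log2 difference -1.93 ± 0.61, adjusted p = 0.0405). The doses were apart in these 4 genes. The call of Hnf4a ended when any one of 0.2 µM replicate 2 and 2 µM replicates 2 and 3 was left out (adjusted p up to 0.101). The calls of Cebpd and Rora ended when any one of 0.2 µM replicates 1 and 2 and 2 µM replicates 2 and 3 was left out (adjusted p up to 0.137 and 0.116). The call of Clock ended whichever library was left out (adjusted p up to 0.134). With the covariate Hnf4a passed, and Cebpd, Rora and Clock did not. When 0.2 µM replicates 1, 2 and 3 were left out in turn the list held 1, 0 and 2 rises and 1, 0 and 2 falls, as against 2, 0 and 0 rises and 2, 0 and 0 falls for 2 µM replicates 1, 2 and 3 and 1 rise and 0 falls with the covariate.

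Machinery of RNAi and microRNAs held 7 falls and 0 rises among 22 members, with a median of -0.31. The same dose difference had a list median of -0.34 with TTR-1236 and -0.24 with TTR-1186. As with the chromatin list, the members are long, with a median longest transcript of 5961.5 bases. Longer transcripts were lower at the higher dose among protein-coding genes as a whole. Ago2, the Argonaute that cleaves targets, was at 98.2, 153 and 138 CPM at 0.2 µM and at 104, 74.2 and 56.7 CPM at 2 µM (log2 difference -0.74 ± 0.21, adjusted p = 0.0227), with PBS at 129 ± 17.3 CPM. Tnrc6b, a GW182 protein that links Argonaute to mRNA decay, was at 33.4, 37.3 and 33.4 CPM at 0.2 µM and at 17.2, 18.3 and 6.54 CPM at 2 µM (log2 difference -1.37 ± 0.36, adjusted p = 0.0180), and Tut7, which adds uridine to RNA ends, was at 73.0, 86.8 and 60.6 CPM at 0.2 µM and at 38.2, 25.0 and 29.7 CPM at 2 µM (log2 difference -1.23 ± 0.36, adjusted p = 0.0290). Replicate 1 of the higher dose lay above the lowest 0.2 µM library for Ago2, and the doses did not overlap for Tnrc6b and Tut7. Tnrc6a (-0.63), Dicer1, which cuts precursors (-1.49), the helicase Ddx6 (-0.72) and the exonuclease Xrn2 (-0.95) fell too, while Ago1 stood at 14.4, 11.6 and 11.2 CPM and 13.9, 9.32 and 11.2 CPM (adjusted p = 0.844). The call of Tnrc6b ended when any one of 0.2 µM replicate 2 and 2 µM replicate 3 was left out (adjusted p up to 0.146). The call of Ago2 ended when any one of 0.2 µM replicates 2 and 3 and 2 µM replicates 2 and 3 was left out (adjusted p up to 0.168). The call of Tut7 ended when any one of 0.2 µM replicates 1 and 2 and 2 µM replicates 2 and 3 was left out (adjusted p up to 0.110). The call of Tnrc6a ended in every fit except that without 2 µM replicate 2 (adjusted p up to 0.133). The calls of Dicer1 and Ddx6 ended whichever library was left out (adjusted p up to 0.148 and 0.171). The call of Xrn2 ended in every fit except that without 2 µM replicate 1 (adjusted p up to 0.222). With the covariate Tnrc6b, Ago2, Tut7, Tnrc6a, Dicer1, Ddx6 and Xrn2 did not pass. List counts were 2, 0 and 2 falls without 0.2 µM replicates 1, 2 and 3, 5, 2 and 0 falls without 2 µM replicates 1, 2 and 3, and 0 rises and 0 falls with the covariate.

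Of 57 receptor, endosome and lysosome genes 6 rose and 5 fell, not far from the shares of 6.78% and 6.05% among all genes. Snx1, a sorting nexin of endosomes, was at 7.42, 11.9 and 7.62 CPM at 0.2 µM and at 20.5, 24.0 and 25.2 CPM at 2 µM (log2 difference 1.30 ± 0.24, adjusted p = 0.00268), and Asgr2, a subunit of the asialoglycoprotein receptor that takes up GalNAc-bearing ligands, was at 9.53, 6.68 and 16.7 CPM at 0.2 µM and at 23.8, 21.8 and 27.3 CPM at 2 µM (log2 difference 1.16 ± 0.28, adjusted p = 0.0107). The other subunit, Asgr1, was at 98.6, 92.0 and 36.4 CPM and 73.0, 58.0 and 57.1 CPM (adjusted p = 0.775). Grn, progranulin, was at 1732, 2291 and 1251 CPM at 0.2 µM and at 993, 966 and 841 CPM at 2 µM (log2 difference -0.87 ± 0.22, adjusted p = 0.0144). The doses overlapped for Asgr1 and were apart for the other genes named. Snx1 passed whichever library was left out. The calls of Asgr2 and Grn ended when any one of 0.2 µM replicate 2 and 2 µM replicate 3 was left out (adjusted p up to 0.0685 and 0.0832). With the covariate Snx1 and Grn passed, and Asgr2 did not. Leaving out 0.2 µM replicates 1, 2 and 3 in turn left the list 4, 1 and 3 rises and 2, 0 and 1 falls, leaving out 2 µM replicates 1, 2 and 3 left 6, 2 and 1 rises and 1, 2 and 0 falls, and the covariate left 1 rise and 2 falls.

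Golgi and secretory genes held 5 rises and 5 falls among 62 members, again near the shares of all genes. Sec13, a coat protein of vesicles that leave the endoplasmic reticulum, was at 9.61, 5.41 and 6.88 CPM at 0.2 µM and at 15.5, 30.3 and 33.2 CPM at 2 µM (log2 difference 1.68 ± 0.31, adjusted p = 0.00255). Sec61b, a subunit of the protein-conducting channel, was at 16.7, 16.3 and 25.4 CPM at 0.2 µM and at 32.3, 38.5 and 48.6 CPM at 2 µM (log2 difference 1.00 ± 0.22, adjusted p = 0.00662), and Tmed2, a cargo receptor, was at 69.4, 89.4 and 75.1 CPM at 0.2 µM and at 106, 125 and 136 CPM at 2 µM (log2 difference 0.65 ± 0.17, adjusted p = 0.0179). Among the falls were the golgins Golga4 (-1.52), Gcc2 (-1.91), Golga2 (-0.82) and Golgb1 (-1.39), long coiled-coil tethers of the Golgi. Sec13 passed whichever library was left out. The call of Sec61b ended without 2 µM replicate 3 (adjusted p = 0.0646). The calls of Tmed2 and Golga4 ended when any one of 0.2 µM replicate 1 and 2 µM replicates 2 and 3 was left out (adjusted p up to 0.108 and 0.109). The call of Gcc2 ended when any one of 0.2 µM replicate 1 and 2 µM replicate 3 was left out (adjusted p up to 0.0941). The call of Golga2 ended when any one of 0.2 µM replicates 1 and 2 and 2 µM replicate 3 was left out (adjusted p up to 0.216). The call of Golgb1 ended whichever library was left out (adjusted p up to 0.144). With the covariate Sec13 and Tmed2 passed, and Sec61b, Golga4, Gcc2, Golga2 and Golgb1 did not. The list held 2, 3 and 3 rises and 0, 3 and 4 falls without 0.2 µM replicates 1, 2 and 3, 6, 2 and 1 rises and 3, 2 and 0 falls without 2 µM replicates 1, 2 and 3, and 3 rises and 0 falls with the covariate.

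Autophagy genes held 3 rises and 1 fall among 33 members, beside 6.78% and 6.05% of all genes. Rb1cc1, which starts autophagosome formation with ULK1, was at 61.3, 43.1 and 38.6 CPM at 0.2 µM and at 17.3, 16.5 and 7.96 CPM at 2 µM (log2 difference -1.75 ± 0.48, adjusted p = 0.0227). Nbr1, a cargo receptor, was at 12.1, 13.6 and 15.1 CPM at 0.2 µM and at 21.3, 25.7 and 31.0 CPM at 2 µM (log2 difference 0.88 ± 0.26, adjusted p = 0.0303), and Atg16l1, part of the enzyme that lipidates LC3, was at 5.01, 4.61 and 7.89 CPM at 0.2 µM and at 12.6, 10.8 and 11.9 CPM at 2 µM (log2 difference 0.93 ± 0.29, adjusted p = 0.0359). The doses did not overlap in these genes. The call of Rb1cc1 ended when any one of 0.2 µM replicates 1 and 2 and 2 µM replicate 3 was left out (adjusted p up to 0.135). The call of Nbr1 ended when any one of 0.2 µM replicates 1 and 2 and 2 µM replicates 2 and 3 was left out (adjusted p up to 0.158). The call of Atg16l1 ended in every fit except that without 0.2 µM replicate 3 (adjusted p up to 0.127). With the covariate Nbr1 passed, and Rb1cc1 and Atg16l1 did not. Without 0.2 µM replicates 1, 2 and 3 in turn there were 0, 1 and 3 rises and 0, 0 and 1 falls, as against 1, 0 and 0 rises and 1, 1 and 0 falls without 2 µM replicates 1, 2 and 3 and 1 rise and 0 falls with the covariate.

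Cytoskeletal and adhesion genes of cultured hepatocytes held 11 rises and 6 falls among 50 members. Actg1, cytoplasmic gamma actin, was at 1123, 1138 and 1061 CPM at 0.2 µM and at 1503, 1750.0 and 1949 CPM at 2 µM (log2 difference 0.64 ± 0.11, adjusted p = 0.00229), and Tubb2a, a beta tubulin, was at 104, 72.5 and 105 CPM at 0.2 µM and at 162, 197 and 222 CPM at 2 µM (log2 difference 1.04 ± 0.21, adjusted p = 0.00494). S100a11, a calcium-binding protein, was at 676, 536 and 943 CPM at 0.2 µM and at 1141, 1203 and 1296 CPM at 2 µM (log2 difference 0.79 ± 0.18, adjusted p = 0.00662). Beta actin, Actb, went the other way and was at 22976, 20879 and 27212 CPM at 0.2 µM and at 17914, 17328 and 16399.9 CPM at 2 µM (log2 difference -0.45 ± 0.12, adjusted p = 0.0190), as did the actin crosslinker Flna (-0.87). Actin and tubulin genes have near-identical copies, so their single values are uncertain. Actg1 and Tubb2a passed whichever library was left out. The call of S100a11 ended without 2 µM replicate 3 (adjusted p = 0.0510). The call of Actb ended when any one of 0.2 µM replicate 3 and 2 µM replicates 2 and 3 was left out (adjusted p up to 0.0986). The call of Flna ended without 0.2 µM replicate 3 (adjusted p = 0.0521). With the covariate Tubb2a and Flna passed, and Actg1, S100a11 and Actb did not. There were 10, 5 and 13 rises and 3, 4 and 2 falls in the list without 0.2 µM replicates 1, 2 and 3, 11, 6 and 2 rises and 4, 2 and 3 falls without 2 µM replicates 1, 2 and 3, and 1 rise and 6 falls with the covariate.

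Interferon response genes and RNA sensors held 4 rises and 4 falls among 49 members, beside 6.78% and 6.05% of all genes. B2m, the light chain of MHC class I, was at 1079, 1013 and 1086 CPM at 0.2 µM and at 1624, 2031 and 2039 CPM at 2 µM (log2 difference 0.83 ± 0.14, adjusted p = 0.00224), with PBS at 1342 ± 49.4 CPM. Ifi27 was at 52.2, 55.3 and 59.96 CPM at 0.2 µM and at 85.6, 85.9 and 121 CPM at 2 µM (log2 difference 0.77 ± 0.19, adjusted p = 0.0134). Xaf1, an interferon-induced antagonist of XIAP, was at 26.4, 34.6 and 13.8 CPM at 0.2 µM and at 5.05, 3.37 and 3.66 CPM at 2 µM (log2 difference -2.29 ± 0.51, adjusted p = 0.00725). Bst2, tetherin, (0.87) and Psmb8, an immunoproteasome subunit (0.68), rose, and Irf2 (-1.17), Irf9 (-0.60) and Iigp1 (-0.87) fell. B2m and Xaf1 passed whichever library was left out. The calls of Ifi27 and Irf2 ended without 2 µM replicate 3 (adjusted p = 0.108 and 0.0659). The call of Bst2 ended when any one of 0.2 µM replicate 3 and 2 µM replicates 2 and 3 was left out (adjusted p up to 0.107). The call of Psmb8 ended when any one of 0.2 µM replicates 2 and 3 and 2 µM replicates 2 and 3 was left out (adjusted p up to 0.127). The calls of Irf9 and Iigp1 ended in every fit except that without 0.2 µM replicate 3 (adjusted p up to 0.121 and 0.169). With the covariate B2m and Bst2 passed, and Ifi27, Xaf1, Psmb8, Irf2, Irf9 and Iigp1 did not. When 0.2 µM replicates 1, 2 and 3 were left out in turn the list held 4, 3 and 2 rises and 2, 2 and 5 falls, as against 5, 2 and 1 rises and 3, 2 and 1 falls for 2 µM replicates 1, 2 and 3 and 3 rises and 0 falls with the covariate.

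Growth factor signalling held 2 rises and 3 falls among 49 members, close to or below the 6.78% and 6.05% of all genes. Pik3r1, the regulatory subunit of phosphoinositide 3-kinase, was at 40.0, 37.3 and 39.1 CPM at 0.2 µM and at 13.3, 13.7 and 14.1 CPM at 2 µM (log2 difference -1.44 ± 0.38, adjusted p = 0.0186), and Nf1, a GTPase activator for RAS, was at 14.3, 13.2 and 17.5 CPM at 0.2 µM and at 1.49, 4.86 and 8.37 CPM at 2 µM (log2 difference -1.62 ± 0.47, adjusted p = 0.0271). Ctnnb1, beta-catenin, was at 154, 133 and 158 CPM at 0.2 µM and at 208, 224 and 227 CPM at 2 µM (log2 difference 0.57 ± 0.16, adjusted p = 0.0238), and lay within 25% of the overlapping gene Ulk4 in every library, so its reads are uncertain. Cell cycle genes held 3 rises and 0 falls among 32 members. Cdt1, which licenses replication origins, was at 5.30, 2.27 and 6.68 CPM at 0.2 µM and at 19.7, 12.998 and 16.3 CPM at 2 µM (log2 difference 1.66 ± 0.34, adjusted p = 0.00499). Pcna, the sliding clamp of replication, (log2 difference 1.26 ± 0.31, adjusted p = 0.0131) and Ccnd1, cyclin D1, (log2 difference 0.97 ± 0.31, adjusted p = 0.0436) were the others, and PBS means were 12.8, 10.3 and 31.5 CPM. Cdt1 passed whichever library was left out. The call of Pik3r1 ended when any one of 0.2 µM replicates 1 and 2 and 2 µM replicates 2 and 3 was left out (adjusted p up to 0.0738). The call of Nf1 ended in every fit except that without 2 µM replicate 3 (adjusted p up to 0.139). The call of Ctnnb1 ended when any one of 0.2 µM replicate 2 and 2 µM replicates 2 and 3 was left out (adjusted p up to 0.104). The call of Pcna ended without 2 µM replicate 3 (adjusted p = 0.0712). The call of Ccnd1 ended in every fit except that without 0.2 µM replicate 3 (adjusted p up to 0.215). With the covariate Pik3r1, Nf1, Ctnnb1, Cdt1, Pcna and Ccnd1 did not pass. Counts of the signalling list were 1, 0 and 1 rises and 0, 0 and 1 falls without 0.2 µM replicates 1, 2 and 3, 2, 0 and 0 rises and 1, 0 and 1 falls without 2 µM replicates 1, 2 and 3, and 0 rises and 0 falls with the covariate. Leaving out 0.2 µM replicates 1, 2 and 3 in turn left the cell cycle list 2, 2 and 3 rises and 0, 0 and 0 falls, leaving out 2 µM replicates 1, 2 and 3 left 2, 2 and 1 rises and 0, 1 and 0 falls, and the covariate left 0 rises and 0 falls.

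Among protein-coding genes whose mean over the 6 libraries reached 10 CPM, the largest rise was in Pfn1. The mean spans both doses, so a gene low at 0.2 µM could reach it through the 2 µM libraries alone. Pfn1, profilin, was at 3.18, 0.267 and 2.29 CPM at 0.2 µM and at 4.10, 57.1 and 80.9 CPM at 2 µM (log2 difference 3.48 ± 1.05, adjusted p = 0.0398), and replicate 1 of the higher dose was far below the others. Fh1, fumarase, was at 1.41, 3.21 and 0.742 CPM at 0.2 µM and at 7.18, 34.6 and 39.8 CPM at 2 µM (log2 difference 3.13 ± 0.65, adjusted p = 0.00562), and Gnb2, a G protein subunit, was at 11.7, 1.87 and 4.18 CPM at 0.2 µM and at 13.4, 57.7 and 73.6 CPM at 2 µM (log2 difference 2.79 ± 0.67, adjusted p = 0.0136). Iscu, the scaffold of iron-sulfur cluster assembly, was at 2.47, 1.94 and 2.496 CPM at 0.2 µM and at 9.89, 21.7 and 39.4 CPM at 2 µM (log2 difference 2.71 ± 0.49, adjusted p = 0.00237), and Gch1, the first enzyme of tetrahydrobiopterin synthesis, was at 10.1, 10.4 and 4.92 CPM at 0.2 µM and at 36.3, 44.9 and 55.1 CPM at 2 µM (log2 difference 2.34 ± 0.44, adjusted p = 0.00346). Cd14, the lipopolysaccharide co-receptor, was at 7.13, 3.94 and 5.60 CPM at 0.2 µM and at 16.5, 32.4 and 44.5 CPM at 2 µM (log2 difference 2.22 ± 0.47, adjusted p = 0.00550). The doses did not overlap in these 6 genes, which the choice of the largest changes required. The remaining rises of this size were Pxdc1 (2.66), Tinagl1 (2.15), Phc2, a Polycomb protein (2.14), Plscr1, a scramblase (2.13), Bcar1, an adhesion adaptor (2.11), Cers2, a ceramide synthase (2.04), and Zfand2a (1.98), besides Cyp2e1 and Ndufa1. Cers2 read within 25% of Setdb1, which overlaps it on the opposite strand, in every library and is uncertain. Iscu, Gch1, Pxdc1, Tinagl1, Phc2 and Zfand2a passed whichever library was left out. The call of Pfn1 ended in every fit except that without 2 µM replicate 1 (adjusted p up to 0.179). The calls of Fh1, Cd14, Plscr1, Bcar1 and Cers2 ended without 2 µM replicate 3 (adjusted p = 0.0507, 0.0510, 0.0613, 0.0547 and 0.0690). The call of Gnb2 ended when any one of 0.2 µM replicate 2 and 2 µM replicates 2 and 3 was left out (adjusted p up to 0.0795). With the covariate Fh1, Iscu, Gch1, Cd14, Pxdc1, Tinagl1, Phc2, Cers2 and Zfand2a passed, and Pfn1, Gnb2, Plscr1 and Bcar1 did not.

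Next to Apob and Bod1l in size of fall stood Syne2. Syne2, which ties the nucleus to actin, was at 37.2, 19.4 and 28.4 CPM at 0.2 µM and at 3.83, 5.04 and 3.93 CPM at 2 µM (log2 difference -2.44 ± 0.66, adjusted p = 0.0227). Ankrd12 was at 24.5, 27.9 and 23.1 CPM at 0.2 µM and at 5.32, 4.98 and 2.27 CPM at 2 µM (log2 difference -2.39 ± 0.49, adjusted p = 0.00499), and Ankrd11, a chromatin cofactor, was at 147, 151 and 117 CPM at 0.2 µM and at 39.6, 34.6 and 21.7 CPM at 2 µM (log2 difference -2.11 ± 0.43, adjusted p = 0.00538), beside the antisense predicted gene Gm45894, from which its reads cannot be told apart without strand. Rad50, of the complex that senses DNA breaks, was at 70.8, 63.1 and 56.7 CPM at 0.2 µM and at 25.8, 14.6 and 6.30 CPM at 2 µM (log2 difference -2.15 ± 0.65, adjusted p = 0.0363). Every 2 µM library lay below the 0.2 µM libraries in these 4 genes, which the choice of the largest changes required. Pawr, a pro-apoptotic regulator (-2.34), Golim4, a Golgi protein (-2.30), Strada, a partner of the kinase LKB1 (-2.23), Zfp609 (-2.18), Lrrc17 (-2.06) and Nbeal1 (-2.05) completed the group with Xaf1, Resf1 and Rbm28. Strada overlaps the more abundant Ccdc47, and Lrrc17 read within 25% of the non-coding gene Bc1 in every library, so both are uncertain. Ankrd12, Ankrd11, Lrrc17 and Nbeal1 passed whichever library was left out. The call of Syne2 ended when any one of 0.2 µM replicates 1 and 3 and 2 µM replicates 2 and 3 was left out (adjusted p up to 0.0924). The call of Rad50 ended in every fit except that without 2 µM replicate 1 (adjusted p up to 0.182). The call of Pawr ended when any one of 0.2 µM replicates 1 and 2 and 2 µM replicates 2 and 3 was left out (adjusted p up to 0.129). The calls of Golim4 and Zfp609 ended without 2 µM replicate 3 (adjusted p = 0.0734 and 0.0681). The call of Strada ended without 0.2 µM replicate 1 (adjusted p = 0.0525). With the covariate Lrrc17 passed, and Syne2, Ankrd12, Ankrd11, Rad50, Pawr, Golim4, Strada, Zfp609 and Nbeal1 did not. The smallest p of all protein-coding genes belonged to Dync1h1, the heavy chain of the dynein motor, a gene named after its values were seen. Dync1h1 was at 563, 721 and 502 CPM at 0.2 µM and at 196, 216 and 132 CPM at 2 µM (log2 difference -1.72 ± 0.19, adjusted p = 2.75e-05), and passed whichever library was left out.

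Protein-coding genes were divided into 4 groups of 2146 by their longest annotated transcript. In the shortest group, up to 2117 bases, 230 genes rose and 52 fell. From 2118 to 3325 bases 159 rose and 67 fell, and from 3328 to 4751 bases 95 rose and 95 fell. In the longest group, from 4752 bases, 32 rose and 251 fell. The medians over all genes of each group were 0.17, 0.10, 0.02 and -0.24, the third of which was -6.24e-04 with TMM factors.

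The longest group took 9.69%, 8.65% and 9.15% of CPM at 0.2 µM and 7.16%, 7.52% and 7.09% at 2 µM, without overlap, and 10.4%, 10.2% and 8.03% in PBS. Mitochondrial ribosomal RNA moved the same way, and the PBS library with the lowest share of the longest group was also the one with 0.797% of it. With that share as a covariate the longest group held 12 rises and 16 falls with a median of 0.04, and the shortest 66 and 16 with a median of 0.13. Without 2 µM replicate 3 these groups held 3 and 52, and 56 and 8. Depth, RNA quality and dose cannot be told apart here, and the part of RNA quality was not tested.

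**Figure D4:**
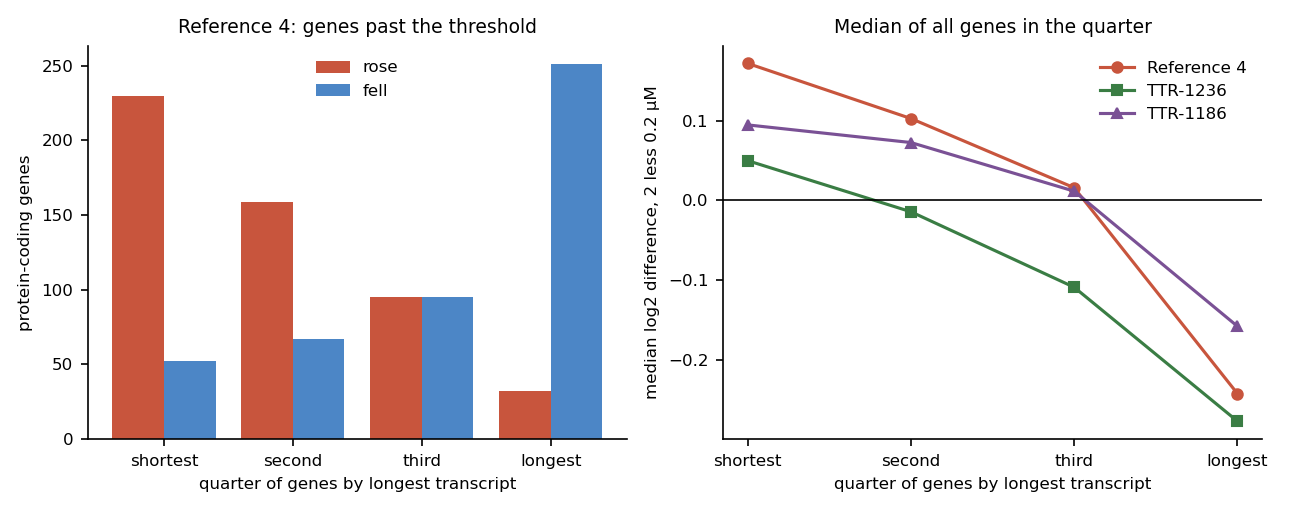
Left, number of protein-coding genes that rose (red) or fell (blue) at 2 µM of Reference 4 in 4 groups of 2146 genes by longest annotated transcript. Right, median log2 difference of all genes in each group for Reference 4 (circles), TTR-1236 (squares) and TTR-1186 (triangles); from the shortest to the longest group the medians ran from 0.17 to -0.24, from 0.05 to -0.28 and from 0.09 to -0.16.

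The other agents were given at the same doses, which allows the dose difference to be compared between agents. With TTR-1236 13 genes fell and 0 rose between the doses, 0.135% of the genes tested, and with TTR-1186 0 genes passed (0%). At an unadjusted p under 0.05 limma held 1112 and 1415 genes for these agents. With whole reads as input, recovered from the deposited CPM, edgeR called 0 and 0 genes and DESeq2 118 and 71. The test of the difference itself, the interaction of dose and agent, called 0 genes (0%) against TTR-1236 and 0 (0%) against TTR-1186, with 914 and 874 at an unadjusted p under 0.05, 0 and 0 in edgeR, and 66 and 25 in DESeq2. Against TTR-1236 the count was 79 without TTR-1236 2 µM replicate 2, 40 without Reference 4 2 µM replicate 1 and 27 with the mitochondrial ribosomal RNA covariate. The larger number of changed genes with Reference 4 is thus not shown to be particular to it for any single gene by the limma fit to all libraries, and missing the threshold is no evidence of equal action.

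For Igfbp1 the dose differences of 1.35 with Reference 4, 0.83 with TTR-1236 and 0.17 with TTR-1186 gave interactions, as Reference 4 less the other agent, of 0.51 (95% interval -0.01 to 1.03) and 1.18 (95% interval 0.66 to 1.69). Apob differed by -2.76, and by -2.09 with TTR-1236 and -1.51 with TTR-1186, with interactions of -0.68 (95% interval -2.00 to 0.64) and -1.25 (95% interval -2.57 to 0.07). For Ccl2 the values were 1.74, and -0.41 with TTR-1236 and 0.81 with TTR-1186, with interactions of 2.15 (95% interval 1.26 to 3.04) and 0.92 (95% interval 0.04 to 1.81). Cox7c stood at 1.95, and at 0.02 with TTR-1236 and 1.01 with TTR-1186, and Chd4 at -1.06, and at -0.59 with TTR-1236 and -0.56 with TTR-1186. Adjusted over all genes, none of these interactions passed, with p between 0.0935 and 0.812. Of the 15 largest rises, chosen for their size with Reference 4, 4 were positive with TTR-1236 (log2 differences from -1.21 to 0.55) and 15 with TTR-1186 (from 0.59 to 2.21). Of the 15 largest falls 15 were negative with TTR-1236 (from -2.24 to -0.71) and 13 with TTR-1186 (from -2.15 to 0.47). Since the choice favours large values with Reference 4, smaller values with the other agents are no result.

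**Figure D5:**
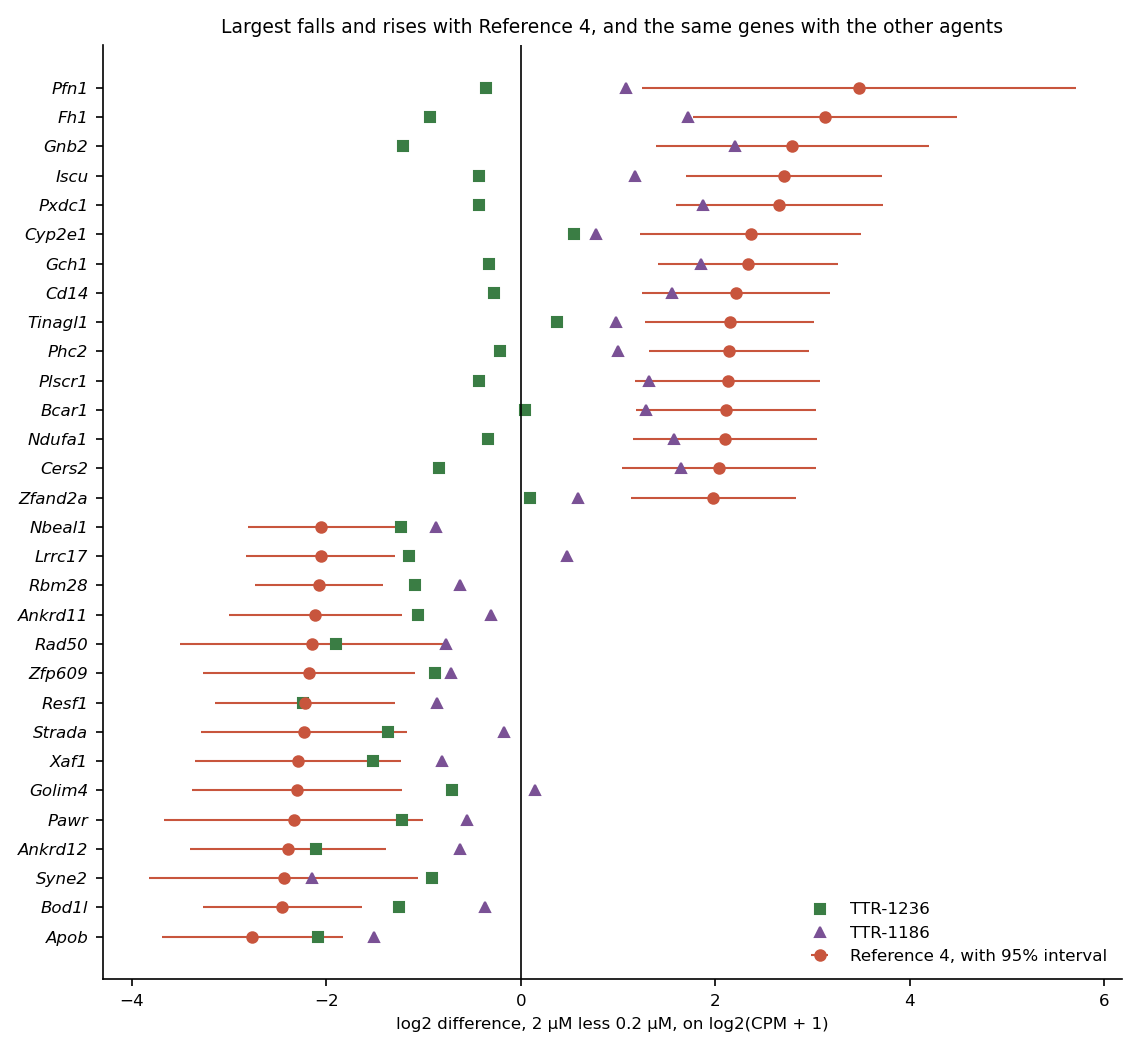
Log2 difference of 2 µM less 0.2 µM, on log2(CPM + 1), for the 15 largest rises and 15 largest falls named with Reference 4 (circles with 95% interval), and for the same genes with TTR-1236 (squares) and TTR-1186 (triangles). The genes were chosen by their Reference 4 value; Apob stands at -2.76, -2.09 and -1.51.

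Markers of other liver cells were largely unmeasured. Of 15 macrophage and Kupffer cell markers 2 were measured, and their summed level was 85.1 to 184 CPM at 0.2 µM and 128 to 157 CPM at 2 µM. Cd68 gave most of it, at 88.7, 175 and 76.6 CPM and 151, 135 and 119.7 CPM (adjusted p = 0.382), while the defining Adgre1, Clec4f and C1qa were not measured. Sinusoidal endothelial markers, 3 of 14, summed to 28.4 to 48.4 and 31.8 to 43.8 CPM, led by Eng (adjusted p = 0.372). Stellate cell and fibroblast markers, 4 of 15, summed to 40.9 to 61.2 and 36.5 to 51.7 CPM, and Acta2, smooth muscle actin, fell (log2 difference -1.28 ± 0.40, adjusted p = 0.0352). Cholangiocyte markers, 4 of 10, summed to 80.8 to 95.2 and 68.4 to 81.4 CPM, and Prom1 fell (log2 difference -1.14 ± 0.35, adjusted p = 0.0350). The call of Acta2 ended when any one of 0.2 µM replicates 1 and 3 and 2 µM replicates 1 and 2 was left out (adjusted p up to 0.135). The call of Prom1 ended when any one of 0.2 µM replicates 1 and 2 and 2 µM replicates 1 and 3 was left out (adjusted p up to 0.226). Acta2 and Prom1 did not pass with the covariate. Alas2, the only measured member of 10 erythroid and platelet markers, was at 16.4, 10.95 and 12.3 CPM and 7.71, 14.2 and 14.5 CPM (adjusted p = 0.851), and 0 of 13 lymphocyte markers were measured.

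Hepatocyte markers were present, with 12 of 15 measured, 5 rises and 1 fall. Their summed level was 12983, 15054 and 15699.8 CPM at 0.2 µM and 19389, 17141 and 17502 CPM at 2 µM, without overlap, with 18292, 16848 and 19824 CPM in PBS. Alb carried this separation: without it the sums were 9367, 11495 and 11889 CPM at 0.2 µM and 13494, 10784 and 10589.6 CPM at 2 µM, which overlap. Alb, Cyp2e1, Hnf4a, Cyp3a11 and Cps1 rose and Apob fell. Alb, Cyp2e1 and Apob passed whichever library was left out. The call of Hnf4a ended when any one of 0.2 µM replicate 2 and 2 µM replicates 2 and 3 was left out (adjusted p up to 0.101). The call of Cyp3a11 ended in every fit except that without 2 µM replicate 1 (adjusted p up to 0.136). The call of Cps1 ended whichever library was left out (adjusted p up to 0.130). With the covariate Alb, Cyp2e1, Hnf4a, Cps1 and Apob passed, and Cyp3a11 did not. The list held 3, 2 and 4 rises and 1, 1 and 1 falls without 0.2 µM replicates 1, 2 and 3, 4, 2 and 2 rises and 1, 1 and 1 falls without 2 µM replicates 1, 2 and 3, and 4 rises and 1 fall with the covariate. In bulk RNA a smaller share of a cell type and less RNA of a gene per cell cannot be told apart.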

How the data were processed

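QuantSeq 3′ libraries of mouse hepatocytes, 21 in all, were deposited as 1 table of CPM a library. Per the submitters' processing notes the authors used cutadapt 1.15, HISAT2 2.1.0 and featureCounts with mm10, whereas the sources used here give neither the annotation release nor the strand setting. The deposited CPM were whole multiples of the worth of 1 read, within 0.001 reads, for 100% of values, so reads were recovered for the count tests. Libraries held 14158740 to 37410773 reads, and no per-library values were left unmapped.

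Of 9657 genes, 9652 matched GENCODE vM21. Each gene was tested with limma 3.58.1 (R 4.3.3) on log2(CPM + 1), with a mean for each of 7 groups over 21 libraries, trend and robust options, contrasts of the doses and their interactions with agent, and Benjamini-Hochberg adjustment over all genes at 0.05. No filter on low values was added, and the lowest mean in the tables was 1.22 CPM. Alternatives were edgeR 4.0.16 and DESeq2 1.42.0 on recovered reads, other scaling factors, pseudocounts of 0.5 and 5, a mean of at least 10 CPM, other sets of libraries, each library left out, and a replicate block. Data simulated for the dose comparison held 9657 genes with 200 changed. In these data limma recovered 64% of 2-fold and 99% of 4-fold changes and called 6 unchanged genes. These values describe the simulated data only, and the share of false calls in the deposited libraries was not tested.

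Genes named by rule were Ttr, the 15 largest rises and 15 largest falls among protein-coding genes past the threshold with non-overlapping groups, a mean of at least 10 CPM and no predicted-gene name, and up to 3 members of each list by smallest p. Other named members were chosen after their values were seen, and some members that the rule names are not reported here. The comparison, the members and the lists were chosen with earlier results of these data known. Promoters are RefSeq sequences. Genes with near-identical or overlapping partners are named as uncertain, as reads may be split between them or shared.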

Additional observations from a re-analysis of the deposited data

How the results depend on the processing

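The counts of changed, risen and fallen genes moved with the libraries used more than with the scaling. Leaving out each library in turn gave 208 to 1148 changed genes, 112 to 676 risen and 96 to 472 fallen, against 1239, 655 and 584. Without 0.2 µM replicate 1 the rises made up 69.9% of calls, against 52.9% in the full set. Only the libraries compared gave 941 falls (43.3% rises). Chosen after seeing the data, leaving out PBS replicate 3 and TTR-1186 2 µM replicate 2 gave 1819 changed genes, 866 risen and 953 fallen, and the covariate of mitochondrial ribosomal RNA share gave 259 changed genes, 187 risen and 72 fallen (72.2% rises) and raised the median of all genes to 0.11. The interaction with TTR-1236 counted 0 to 79 genes over the libraries left out, 66 in DESeq2 and 27 with the covariate. That with TTR-1186 counted 0 to 1, 25 in DESeq2, 4 without the pair of libraries and 2 with the covariate. Of the 120 genes past the threshold that the naming rule picks, 53 passed whichever library was left out and 45 with the covariate. Alas2, not past the threshold, changed sign to 0.01 without 0.2 µM replicate 1 and 0.13 without 2 µM replicate 1 (-0.2859 without 2 µM replicate 3), and mt-Rnr2 stood at 0.004416 with the covariate, which is built from it. Other causes were not tested. Deviations of same-numbered libraries from their group means correlated between the doses at -0.0963, -0.0409 and 0.0872. Other pairs lay between -0.0915 and 0.1158. With 3 libraries a group these values cannot show whether same-numbered libraries share an origin. With the replicate block 1257 genes changed, 640 up and 617 down. Levels of a few CPM rest on few reads, which limits genes low at the lower dose.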
